A study of Mus musculus with 6 samples.

Results

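The immediate early genes described here are Fos, Fosb, Junb, Egr1, Egr2, Nr4a1, Dusp1, Ier2, Btg2 and Per1, and their messenger RNA was followed from mouse to mouse in the striatum, the forebrain region that degenerates early in Huntington's disease. These members were chosen by their per-array values and the correlations among them, with earlier results of these arrays known, so those values are given as a description without a test. Every probe set annotated to exactly 1 of these symbols was taken. All 10 genes were measured, by 13 probe sets, of 8251 genes and 12422 probe sets in all. The samples came from 3 Hdh4/Q80 mice (replicates 7, 8 and 9) and 3 wild-type littermates (replicates 4, 5 and 6). All were females of the C57BL/6 strain aged 12 months, with 1 Affymetrix array per mouse and no drug or stimulus given in the labels. The Hdh4/Q80 line has a lengthened CAG repeat in the mouse's own huntingtin gene, Htt, once named Hdh. The labels call these mice transgenic, and the sources used here do not give their zygosity. The comparison addresses which striatal transcripts differ in level between mutants and littermates.

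Immediate early genes are transcribed within minutes of synaptic activity, growth factor or stress signals, from promoters already occupied by factors such as SRF and CREB, and without new protein synthesis. Their products include transcription factors of the AP-1, EGR and NR4A families and proteins that shut the signal down again. Their transcripts are short-lived, so in brain tissue their level follows the recent past of the animal, and striatal neurons are known to induce them through dopamine, glutamate and cyclic AMP signalling.

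The promoters of 5 members whose levels moved together between mice (Fos, Junb, Nr4a1, Dusp1 and Egr2) and of Btg2, which had Hdh4/Q80 replicate 8 in place of replicate 7 among its 3 highest mice, are shown so that the sequence upstream can be set beside the values. Each window runs from 250 bases before to 50 bases after the annotated start and is taken from RefSeq (build GRCm38.p6). Windows from the promoter table were used for 8 of the 10 members, and none was used for Egr1 and Ier2. Some windows were left out by chromosome, so a missing window does not show that the gene had none in that table. Where a gene had several windows, the table holds each annotated start, and for Egr2 the third of its windows is printed. Capitals mark matches on either strand to 6 motifs: the cyclic AMP response element (CRE, TGACGTCA), its core (TGACG), the CArG box bound by SRF, the TATA box (TATAAA), the EGR site (GCGNGGGCG) and the E-box (CACGTG). The CRE contains the core, so a CRE also counts as a core on each strand.
Fos (chr12:85473640-85473939, plus strand): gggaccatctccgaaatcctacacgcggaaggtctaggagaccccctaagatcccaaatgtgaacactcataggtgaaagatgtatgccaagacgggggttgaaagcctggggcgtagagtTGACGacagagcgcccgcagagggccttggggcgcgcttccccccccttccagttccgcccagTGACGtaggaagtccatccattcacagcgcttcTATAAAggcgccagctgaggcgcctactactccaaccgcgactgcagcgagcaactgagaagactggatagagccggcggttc
Junb (chr8:84978699-84978998, minus strand): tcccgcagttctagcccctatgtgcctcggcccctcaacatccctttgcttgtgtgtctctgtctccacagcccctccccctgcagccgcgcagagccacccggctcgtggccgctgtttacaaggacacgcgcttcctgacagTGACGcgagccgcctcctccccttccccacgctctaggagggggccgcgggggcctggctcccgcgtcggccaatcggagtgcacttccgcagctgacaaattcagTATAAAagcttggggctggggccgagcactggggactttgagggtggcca
Nr4a1 (chr15:101266596-101266895, plus strand): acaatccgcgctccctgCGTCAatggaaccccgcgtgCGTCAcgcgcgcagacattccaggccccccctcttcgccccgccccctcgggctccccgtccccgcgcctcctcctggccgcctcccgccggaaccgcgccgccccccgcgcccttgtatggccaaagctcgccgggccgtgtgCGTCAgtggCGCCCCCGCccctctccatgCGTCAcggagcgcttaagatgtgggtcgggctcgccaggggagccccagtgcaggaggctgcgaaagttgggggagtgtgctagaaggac
Dusp1 (chr17:26508423-26508722, minus strand): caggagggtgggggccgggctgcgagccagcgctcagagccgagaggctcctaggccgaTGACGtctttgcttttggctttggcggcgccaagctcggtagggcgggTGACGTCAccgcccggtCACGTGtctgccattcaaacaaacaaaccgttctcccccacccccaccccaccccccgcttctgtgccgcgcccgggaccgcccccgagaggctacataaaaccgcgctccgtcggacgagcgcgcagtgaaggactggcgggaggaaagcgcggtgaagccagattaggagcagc
Egr2 (chr10:67537619-67537918, plus strand): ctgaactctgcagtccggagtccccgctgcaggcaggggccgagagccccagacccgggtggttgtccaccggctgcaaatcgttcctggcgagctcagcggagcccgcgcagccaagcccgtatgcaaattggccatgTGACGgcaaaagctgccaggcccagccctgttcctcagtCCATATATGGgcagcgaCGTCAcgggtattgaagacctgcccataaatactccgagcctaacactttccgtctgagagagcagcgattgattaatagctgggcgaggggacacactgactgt
Btg2 (chr1:134079106-134079405, minus strand): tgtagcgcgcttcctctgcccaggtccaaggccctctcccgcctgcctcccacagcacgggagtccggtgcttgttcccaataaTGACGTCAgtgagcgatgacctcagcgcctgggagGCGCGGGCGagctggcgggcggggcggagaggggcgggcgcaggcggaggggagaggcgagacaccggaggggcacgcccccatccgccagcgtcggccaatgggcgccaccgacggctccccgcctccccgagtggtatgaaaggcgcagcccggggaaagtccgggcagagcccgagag

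The full CRE lies in the Dusp1 window, 143 bases before the start, and in the Btg2 window, 166 bases before it. It is present in 1.79% of all 32851 promoter windows of that length. The CArG box lies 72 bases before the printed Egr2 start, against 1.63% of all windows. Fos has the CRE core 129 and 66 bases before its start and a TATA box 33 bases before it, and Nr4a1 has 4 cores on the opposite strand and an EGR site 60 bases before the start. The core occurs in 20.8%, the TATA box in 13.6%, the EGR site in 5.55% and the E-box in 7.15% of all windows. Btg2 has both a CRE and an EGR site, the latter 131 bases before its start. Whether these letters bear on which mice were high was not tested. Such a match describes letters in this window and is not a measured binding site. Sites outside the window were not searched, so a motif missing here may lie farther away. The capitals TATAAA in the Junb window begin at the annotated start and not before it.

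The arrays were alike as a whole. Their median log2 levels ran from 7.10 to 7.13, and any 2 arrays had r of 0.990 to 0.998 over all probe sets, where the points are genes and not replicates. The array of Hdh4/Q80 replicate 8 was the least like the rest, with a mean correlation of 0.992 with the other arrays, against 0.995 to 0.997 for the remaining mice. Of 19 spiny projection neuron markers listed for the striatum 9 were measured, from the 22.3rd percentile of mean level (Rgs9) upward. The phosphodiesterase Pde1b, the enkephalin precursor Penk, the substance P precursor Tac1, the D2 receptor Drd2 and the transcription factor Foxp1 lay at the 91.3rd or higher, and Pdyn, Ebf1, Isl1 and Rgs9 at the 77.4th or lower, with Rgs9 below the lower quartile of every array. Drd1 and Ppp1r1b were among the 10 not measured. In this bulk tissue, fewer cells of a type and less RNA per cell cannot be told apart. Here a level is a log2 expression value after robust multi-array average (RMA) normalization, and a percentile of mean level says only how bright a probe set was among all of them, not how abundant its transcript was.

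The AP-1 subunits Fos and Junb, the orphan nuclear receptor Nr4a1, the MAP kinase phosphatase Dusp1, the zinc finger factor Egr2 and the clock repressor Per1 were high in the same mice: Hdh4/Q80 replicate 7 and wild-type replicates 5 and 6. They were low in Hdh4/Q80 replicates 8 and 9 and wild-type replicate 4. High and low mice thus occurred in both genotypes. Over all genes, the highest 3 arrays were these same mice for 7.7%, against 6 of the 10 members, a count that the choice of members may itself have shaped. Egr1 behaved otherwise and lay lower in every Hdh4/Q80 mouse than in every wild-type mouse on its bright probe set. Fosb varied little, and Btg2 about as much as the median gene of similar level (SD within groups 0.117, against 0.109).

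Fos, the inducible partner of Jun proteins in AP-1, had the widest range. On its brighter probe set (160901_at) the log2 level was 6.48, 5.13 and 4.87 in Hdh4/Q80 replicates 7, 8 and 9, against 4.98, 6.47 and 6.52 in wild-type replicates 4, 5 and 6. One clump of mice (7, 5 and 6) spanned only 0.05 log2 units, the other (8, 4 and 9) 0.27, and the gap between the clumps was 1.33. The highest and the lowest mouse differed 3.15-fold on the array scale. The low values lay below the lower quartile of every array (5.79 to 5.86), where RMA compresses differences, and the high ones above the upper end of that range. The group means were 5.49 ± 0.868 in Hdh4/Q80 and 5.99 ± 0.872 in wild type (log2 level, SD, n = 3 mice each), so the spread within each genotype exceeded the difference of -0.50 ± 0.458 (log2, limma's SE). That difference became -1.0 without wild-type replicate 4 and -0.18 without Hdh4/Q80 replicate 9. No other gene among the 1651 in the dimmest quintile of mean level, where Fos lies, had a larger SD within groups (0.87, against a median of 0.0958). A dimmer Fos probe set (161716_at) did not follow: its level was 5.43, 5.74 and 5.52 in Hdh4/Q80 mice and 5.44, 5.46 and 5.24 in wild-type mice, with a difference of 0.19 ± 0.0979. All 6 of these values lay below that quartile, and where its probes lie in the transcript was not known here.

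**Figure D1:**
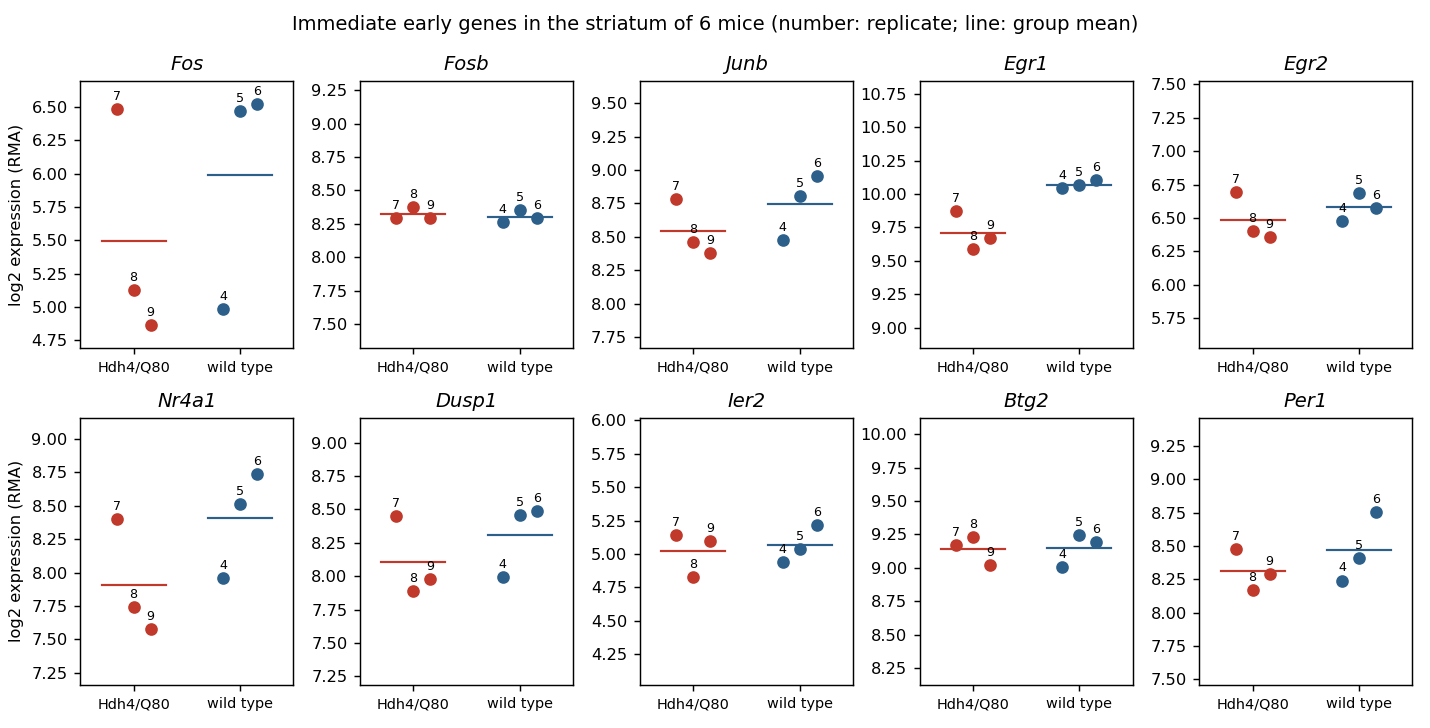
Log2 expression of the brightest probe set of each of the 10 genes, with Hdh4/Q80 on the left and wild type on the right of each panel; a point is 1 mouse with its replicate number, and a line is the group mean of 3 mice. Every vertical axis spans the same number of log2 units; Fos runs from 4.87 to 6.52, with mice 7, 5 and 6 high and mice 8, 9 and 4 low, while the Egr1 points of the 2 groups do not overlap.

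Junb, an AP-1 subunit that pairs with Fos, ordered the mice almost as Fos did. The brighter probe set (102363_r_at) read 8.79, 8.46 and 8.38 in Hdh4/Q80 mice 7, 8 and 9, against 8.48, 8.80 and 8.95 in wild-type mice 4, 5 and 6. A second probe set (102362_i_at) read 8.54, 8.02 and 7.98 in Hdh4/Q80 mice and 8.10, 8.55 and 8.55 in wild-type mice, so both probe sets put the same 3 mice on top. Their differences were -0.20 ± 0.135 and -0.22 ± 0.163 (log2, SE), with overlapping groups. Without wild-type replicate 4 the first became -0.33, and without wild-type replicate 6 it became -0.10.

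Fosb, whose truncated product accumulates in the striatum under repeated stimulation, was nearly flat on its probe set. Which of its splice forms that probe set detects was not known here. It read 8.30, 8.38 and 8.30 in Hdh4/Q80 mice and 8.26, 8.35 and 8.30 in wild-type mice, a range of 0.11 log2 units over all 6. Its SD within groups (0.0469) was below that of 1471 of the 1650 genes in the same quintile of mean level. The difference between groups was 0.02 ± 0.0678.

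Egr1, an inducible zinc finger transcription factor also called Zif268, was the only member whose groups did not overlap. Its bright probe set (98579_at) read 9.87, 9.59 and 9.67 in Hdh4/Q80 mice 7, 8 and 9, against 10.04, 10.06 and 10.11 in wild-type mice 4, 5 and 6. The lowest wild-type mouse stood 0.17 above the highest Hdh4/Q80 mouse, although that mouse, replicate 7, was again the highest of its group. Wild-type replicate 4, low for Fos, was level with its littermates for Egr1. The group means were 9.71 ± 0.147 in Hdh4/Q80 and 10.07 ± 0.0324 in wild type (log2 level, SD, n = 3 each), a difference of -0.36 ± 0.084 or 1.28-fold lower in Hdh4/Q80, and it ran from -0.44 to -0.30 when 1 mouse was left out. Such separation is common on these arrays: all 3 Hdh4/Q80 mice lay below all 3 wild-type mice for 5.22% of genes and above for 5.87%. The second Egr1 probe set (161802_i_at) went the other way, at 5.38, 5.87 and 5.72 in Hdh4/Q80 mice and 5.51, 5.36 and 5.13 in wild-type mice, a difference of 0.32 ± 0.132. It was dim, at the 20.3rd percentile of mean level against the 95.1st for the bright one, and its groups overlapped. With the mean of both probe sets the Egr1 difference became -0.02.

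Egr2, a related zinc finger factor, read 6.69, 6.40 and 6.36 in Hdh4/Q80 mice 7, 8 and 9, against 6.48, 6.68 and 6.57 in wild-type mice 4, 5 and 6. It thus followed Fos in which mice were high and not Egr1, over a narrow range of 0.33 log2 units. The difference was -0.10 ± 0.0996, within the spread of either group (SD 0.182 in Hdh4/Q80 and 0.103 in wild type). It became -0.20 without Hdh4/Q80 replicate 7 and -0.03 without Hdh4/Q80 replicate 9.

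Nr4a1, a nuclear receptor induced by activity and also known as Nur77, varied most after Fos. Levels were 8.40, 7.74 and 7.58 in Hdh4/Q80 mice 7, 8 and 9, against 7.96, 8.51 and 8.74 in wild-type mice 4, 5 and 6, a 2.24-fold range. Only 3 of the 1650 genes in the same quintile of mean level had a larger SD within groups (0.419, against a median of 0.096). The 2 lowest mice were Hdh4/Q80 and the 2 highest wild type, but Hdh4/Q80 replicate 7 exceeded wild-type replicate 4, so the groups overlapped. The difference was -0.50 ± 0.228, which became -0.75 without Hdh4/Q80 replicate 7 and -0.33 without wild-type replicate 6.

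Among the members that restrain signalling or growth, Dusp1, which dephosphorylates MAP kinases, followed Fos most closely. It read 8.45, 7.89 and 7.98 in Hdh4/Q80 mice 7, 8 and 9, against 7.99, 8.46 and 8.49 in wild-type mice 4, 5 and 6. The 3 high mice lay within 0.03 log2 units of each other and the 3 low ones within 0.10, with a gap of 0.46 between them. The difference between genotypes was -0.21 ± 0.164, from -0.38 without Hdh4/Q80 replicate 7 to -0.10 without Hdh4/Q80 replicate 8. Btg2, an antiproliferative protein that recruits a deadenylase complex, read 9.17, 9.23 and 9.02 in Hdh4/Q80 mice and 9.004, 9.24 and 9.19 in wild-type mice, with a difference of -0.01 ± 0.0878. Hdh4/Q80 replicate 8, low for Fos, was among the highest for Btg2. Its lowest mice, wild-type replicate 4 and Hdh4/Q80 replicate 9, were low for Fos as well. Over the 6 arrays Btg2 had r = 0.67 with Fos and 0.05 with Egr1. Ier2, a growth factor-inducible nuclear protein, was dim on its only probe set, at 5.14, 4.83 and 5.10 in Hdh4/Q80 mice and 4.94, 5.04 and 5.22 in wild-type mice. All these values lie below the lower quartile of every array, and the Ier2 difference was -0.04 ± 0.103.

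Per1, a repressor in the circadian clock that is also induced acutely through CREB, read 8.47, 8.17 and 8.29 in Hdh4/Q80 mice 7, 8 and 9, against 8.24, 8.41 and 8.75 in wild-type mice 4, 5 and 6. Wild-type replicate 6 stood above the other mice. The difference was -0.16 ± 0.128 and became -0.02 without that mouse. Without wild-type replicate 4 it became -0.27.

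Taken over the brightest probe sets, 9 of the 10 members had a difference below 0, against 53.3% of all genes, and the median was -0.18 log2 against -0.01 over all genes. These genes share their mice, so 9 negative differences are far from 9 separate observations. None of the 13 probe sets passed limma's test (adjusted p under 0.05 by Benjamini-Hochberg over all 12422 probe sets), where 0% of all probe sets passed and the lowest adjusted value was 0.857. Without adjustment, 355 genes (4.3%) had p under 0.05. Since the members were chosen with this comparison known, nothing is read from that count. Without wild-type replicate 4 the median over the members was -0.30, and without Hdh4/Q80 replicate 8 it was -0.09.

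**Figure D2:**
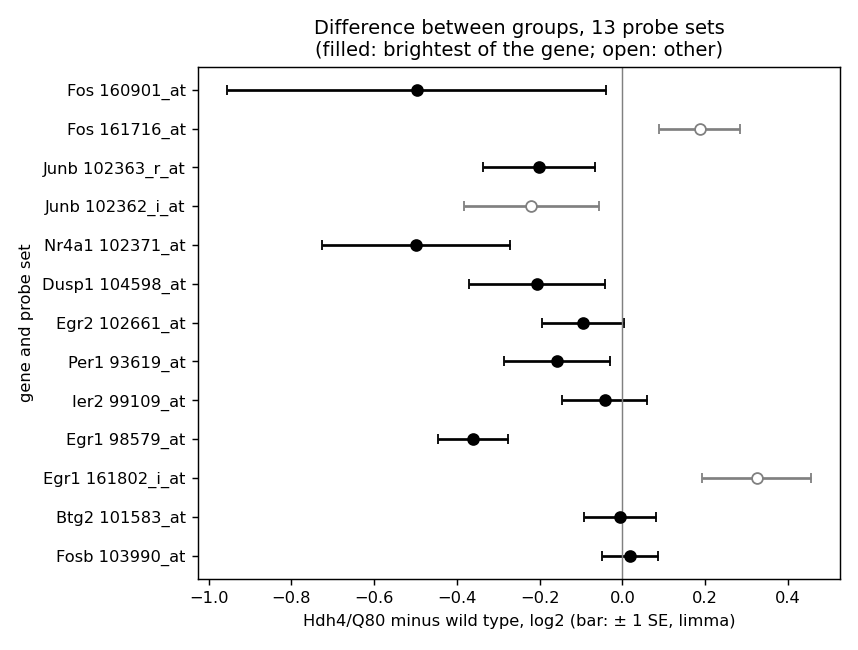
Difference in log2 expression, Hdh4/Q80 minus wild type (horizontal axis), with bars of 1 limma SE, for each of the 13 probe sets (vertical axis); filled points are the brightest probe set of a gene and open points the others. Differences range from -0.50 for Fos and Nr4a1 to 0.32 for the dim Egr1 probe set, and the dim probe sets of Fos and Egr1 lie on the other side of 0 from the bright ones.

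The correlation between members over the 6 arrays is given as a description. Fos with Dusp1 had Pearson's r = 0.98 (Spearman's rho = 0.77), Fos with Junb r = 0.97 (rho = 0.89) and Junb with Nr4a1 r = 0.99 (rho = 1.0). Because the Fos values fall into 2 clumps of 3 mice, such an r mostly records that 1 split of the animals. Within a clump, or within 1 genotype, only 3 mice remain. Among the 6 genes that shared the 3 highest mice, r ran from 0.59 (Egr2 with Per1) to 0.99, over 15 pairs. Egr1 correlated with these 6 at 0.60 to 0.80, whereas Fosb had r between -0.48 and 0.11 with every member other than Btg2, with which it reached 0.79. Over all 45 pairs the mean r was 0.55, 39 were above 0 and 16 above 0.8.

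The same correlations were computed with the genotype taken out. When each value was expressed as a deviation from its own group mean, the mean r over the 45 pairs was 0.58 and 17 pairs exceeded 0.8. Fos and Nr4a1 had r = 0.94 before and 0.98 after, and Egr1 and Fos 0.60 and 0.74. Wild-type replicate 4 lay on the low side of its littermates in these deviations. Hdh4/Q80 replicate 7 lay above its group mean for every member but Fosb. Without wild-type replicate 4 the mean r was 0.52 over the arrays and 0.41 for deviations, so there it was lower once the group means were taken out. Without Hdh4/Q80 replicate 8 the mean r of deviations was 0.73. When the probe sets of a gene were averaged, the mean r was 0.34, since the dim probe sets of Fos and Egr1 ran against the bright ones.

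**Figure D3:**
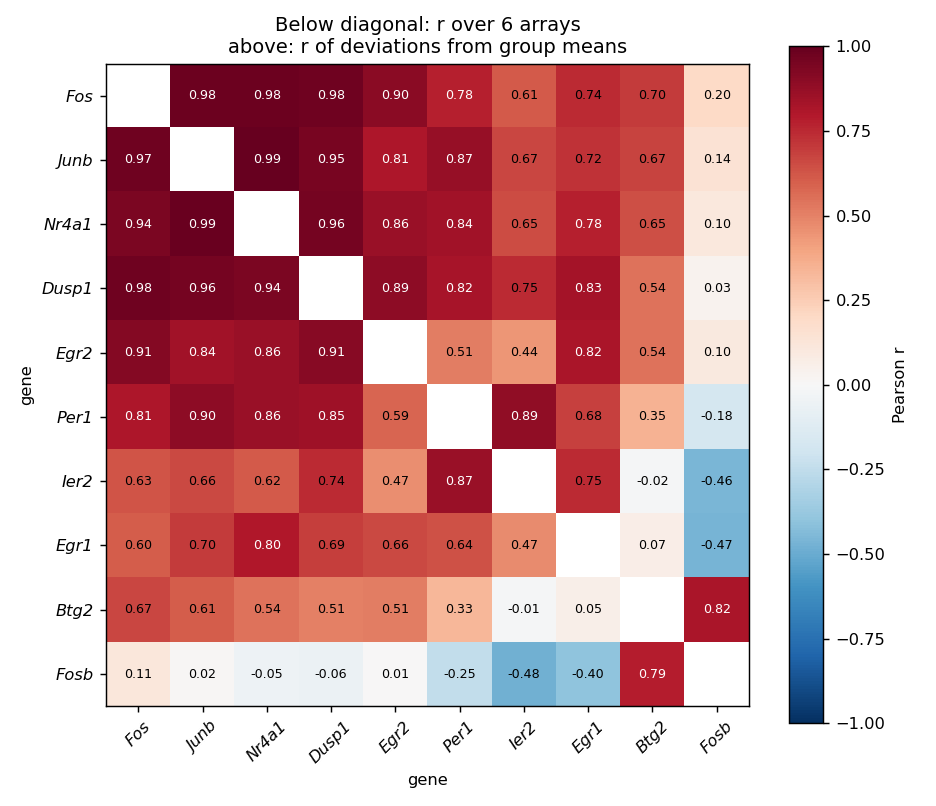
Pearson's r for each pair of the 10 genes, by colour and printed value: below the diagonal over the 6 arrays, above it for deviations from the group means. Fos, Junb, Nr4a1 and Dusp1 form a block with r of 0.94 to 0.99 on both sides, and Fosb stands apart from all but Btg2.

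The 38 measured genes of a list of 59 other activity-induced genes ranged widely in their likeness to the members. None passed the test over all probe sets, and 25 had a difference below 0, with a median of -0.07. Their median correlation with the mean profile of the 10 members was 0.27 over the 6 arrays, against 0.045 for all other genes, and 4 of 38 (10.5%) exceeded 0.8, against 4.84% of all other genes. That profile is an unscaled mean of centred log2 values, so Fos and Nr4a1, the members with the widest ranges, weigh most in it. Lists not chosen for activity had higher medians, among them microglia markers (0.49), astrocyte markers (0.46), clock genes (0.37) and oligodendrocyte markers (0.31). The cortical neuron markers had 0.38, but Nr4a2, whose r is that median, is also in the activity-induced list. Nothing particular to activity-induced genes is therefore read from their median of 0.27. For 14 of the 38 r was below 0, down to -0.80 for the kinase Pim1 and -0.52 for the AP-1 subunit Fosl1 and the secretogranin Scg2. The 4 above 0.8 were Cebpd, a C/EBP family transcription factor (r = 0.89), the ADP-ribosylase Tiparp (0.87), the stress-induced Gadd45g (0.84) and the kinase Sgk1 (0.83). Sgk1, which glucocorticoids also induce, read 8.57, 8.33 and 8.46 in Hdh4/Q80 mice and 8.09, 8.78 and 8.94 in wild-type mice, so wild-type replicate 4 was the lowest of all. Rgs2, an inducible regulator of G protein signalling, had the smallest unadjusted p of the list (difference -0.26 ± 0.0886; adjusted p = 0.857 in limma's test), with 8.23, 8.30 and 7.98 in Hdh4/Q80 mice against 8.41, 8.46 and 8.43 in wild-type mice. Like Egr1 on its bright probe set, Rgs2 was lower in every Hdh4/Q80 mouse and had wild-type replicate 4 level with its littermates. Irs2 was also lower in every Hdh4/Q80 mouse and Plk3 higher in every one, each with a gap of only 0.005 between the groups. Over all genes, 5.22% were lower and 5.87% higher in every Hdh4/Q80 mouse. Jun, the classical partner of Fos, had a difference of 0.03, and Egr3, Egr4, Arc, Npas4 and Nr4a3 were among the 21 genes of the list without a probe set of their own and were not measured.

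Genes that act beside or upstream of the members were described in the same way. Of 10 dimerization partners and corepressors 8 had a difference below 0 and 0 passed. The transcription factor Maf, with the smallest unadjusted p of that list, had 6.63, 6.47 and 6.28 in Hdh4/Q80 mice and 6.57, 6.82 and 6.95 in wild-type mice, a difference of -0.32 ± 0.114 (adjusted p = 0.857 in limma's test). Of 51 genes that carry signals to SRF and CREB 28 were measured, 20 had a difference below 0 (median -0.04) and 0 passed. In that list 5 of 28 (17.9%) correlated above 0.8 with the member profile, against 4.84% of all other genes, but 13 had r below 0 and the list's median r was 0.028, against 0.045 for all other genes. Camk2a, the alpha subunit of a calcium-dependent kinase of synapses, had the highest r of any gene considered (0.99). Its bright probe set read 9.92, 9.26 and 9.07 in Hdh4/Q80 mice 7, 8 and 9, against 9.33, 9.996 and 10.18 in wild-type mice 4, 5 and 6. The other Camk2a probe set read 7.76, 6.78 and 6.82 in Hdh4/Q80 mice and 7.04, 7.77 and 8.10 in wild-type mice, with the same 3 mice on top and a range of 2.5-fold. Ntrk2, the receptor of brain-derived neurotrophic factor, read 7.73, 7.18 and 7.05 in Hdh4/Q80 mice and 7.37, 7.65 and 7.76 in wild-type mice (r = 0.96). The NMDA receptor subunit Grin2b followed with r = 0.83. Of 21 listed clock genes other than Per1, 17 were measured, 11 had a difference below 0 (median -0.01), 0 passed and 0 correlated above 0.8.

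Likeness to the members was ranked over 2107 genes above the median level with an SD of at least 0.1 over the 6 arrays. The 10 most alike were Camk2a, Errfi1, Galk2, 2810025M15Rik, Ntrk2, Pard6a, Socs5, Kcnj4, Mef2b and St6galnac6, with r from 0.95 to 0.99. All 10 had Hdh4/Q80 replicate 7 and wild-type replicates 5 and 6 as the highest arrays. Apart from Camk2a (2.16-fold between the highest and lowest mouse) and Ntrk2 (1.64-fold), their ranges were small, at 1.19- to 1.33-fold. Errfi1, an inducible inhibitor of the EGF receptor, read 8.35, 8.10 and 8.12 in Hdh4/Q80 mice and 8.17, 8.38 and 8.35 in wild-type mice. An r over 6 arrays is imprecise, and the top of a ranking of this many genes favours high values.

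**Figure D4:**
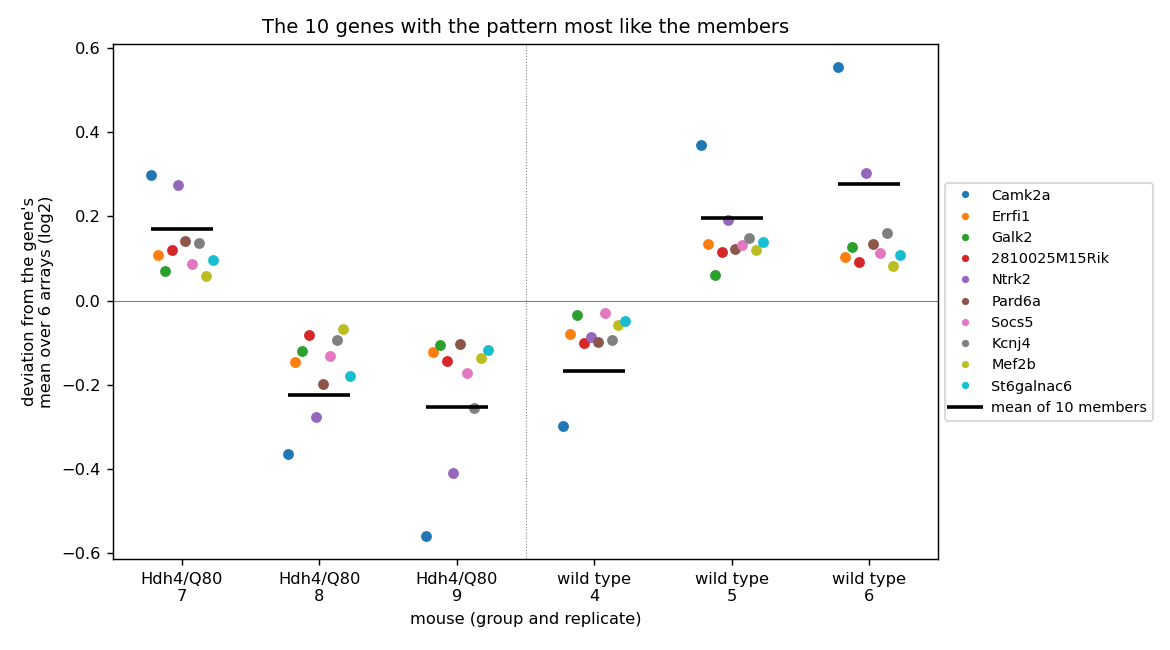
Deviation of each gene's log2 level from its own mean over 6 arrays (vertical axis) in each mouse, Hdh4/Q80 on the left and wild type on the right, for the 10 genes most like the members; black bars are the mean of the 10 members. Camk2a shows the widest spread, and all 10 genes are high in mice 7, 5 and 6.

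Markers of other tissue and of stress were set beside these values, mouse by mouse. The 9 measured of 16 choroid plexus markers had a mean log2 level of 7.15 to 8.11 in Hdh4/Q80 mice and 7.09 to 7.64 in wild-type mice. They were higher in Hdh4/Q80 replicates 8 and 9 and wild-type replicate 6 than in the others, so they were high in 2 mice with low Fos and in 1 with high Fos, and low in wild-type replicate 4, which had low Fos. The 13 measured of 20 cortical neuron markers ran from 7.23 to 7.60 in Hdh4/Q80 mice and 7.25 to 7.82 in wild-type mice. Tbr1, a cortical transcription factor, read 6.96, 5.95 and 6.92 in Hdh4/Q80 mice against 6.83, 6.10 and 8.04 in wild-type mice, a 4.26-fold range. Cck, a neuropeptide precursor of cortical neurons, read 8.52, 7.07 and 8.52 in Hdh4/Q80 mice against 8.09, 7.31 and 9.38 in wild-type mice, a 4.94-fold range. Both were highest in wild-type replicate 6 and Hdh4/Q80 replicate 7, which had high Fos, and lowest in Hdh4/Q80 replicate 8, which had low Fos. Wild-type replicate 5, with high Fos, was the second lowest for both. Hdh4/Q80 replicate 9, with low Fos, lay close behind replicate 7, at 6.92 for Tbr1 and 8.52 for Cck. Wild-type replicate 4, also low for Fos, lay above wild-type replicate 5 for both genes. The 13 measured of 15 heat shock genes ran from 8.30 to 8.55 in Hdh4/Q80 mice and 8.42 to 8.68 in wild-type mice, with wild-type replicate 4 the highest and Hdh4/Q80 replicate 8 the lowest, both of them low for Fos. On the brightest probe sets, no gene of the choroid plexus, cortical, blood, microglia and spiny neuron lists shared the 3 highest mice of Fos. One gene did so in each of the oligodendrocyte (11.1%), astrocyte (9.09%), heat shock (7.69%) and endothelial (6.25%) lists, against 7.7% of all genes. A dimmer probe set of the cortical list's Mef2c (104591_g_at) also had these mice on top. The share with these mice highest was 18.4% for the other activity-induced genes and 17.9% for the genes that signal to SRF and CREB. It was 11.8% for the clock genes and 10% for the dimer partners and corepressors. These lists were chosen with earlier results known, and the shares were not tested. The mean level of the astrocyte list was highest in the same 3 mice, by a small margin: its deviations were 0.018, -0.077 and -0.017 in Hdh4/Q80 replicates 7, 8 and 9, against 0.011, 0.027 and 0.039 in wild-type replicates 4, 5 and 6.

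Egr1 separated the genotypes on its bright probe set, while its dim one went the other way with overlapping groups. Lists whose mean level also separated them are given beside it, and how often a list does so was not computed. The dimer partners and corepressors did so too, at 8.83 to 8.92 in Hdh4/Q80 mice and 8.95 to 8.99 in wild-type mice. The lists not given in this paragraph overlapped. The 12 measured of 15 microglia markers had mean log2 levels of 8.11 to 8.28 in Hdh4/Q80 mice and 8.30 to 8.39 in wild-type mice. The 4 measured of 10 blood markers ran from 8.38 to 8.49 in Hdh4/Q80 mice and 8.50 to 8.67 in wild-type mice. That separation lay in the globin genes Hba-a1 (difference -0.43) and Hbb-b2 (-0.29), while Alas2 was level (-0.014) and Slc4a1 was on the other side of 0 (0.17). The 9 measured of 15 oligodendrocyte markers ran from 9.06 to 9.15 in Hdh4/Q80 mice and 9.17 to 9.26 in wild-type mice. The 16 measured of 19 endothelial and mural markers ran from 7.069 to 7.102 in Hdh4/Q80 mice and 7.103 to 7.174 in wild-type mice, all but touching. For the 11 measured of 14 astrocyte markers the ranges overlapped, at 8.80 to 8.90 in Hdh4/Q80 mice and 8.89 to 8.92 in wild-type mice. RMA values have no 0; 2 endothelial, 1 choroid plexus and 2 cortical markers, and none of the microglia, blood, oligodendrocyte or astrocyte markers, lay below the lower quartile on every array. The part of these markers in the immediate early gene values was not tested, and the sources used here give neither the time of day nor the handling before tissue collection.

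**Figure D5:**
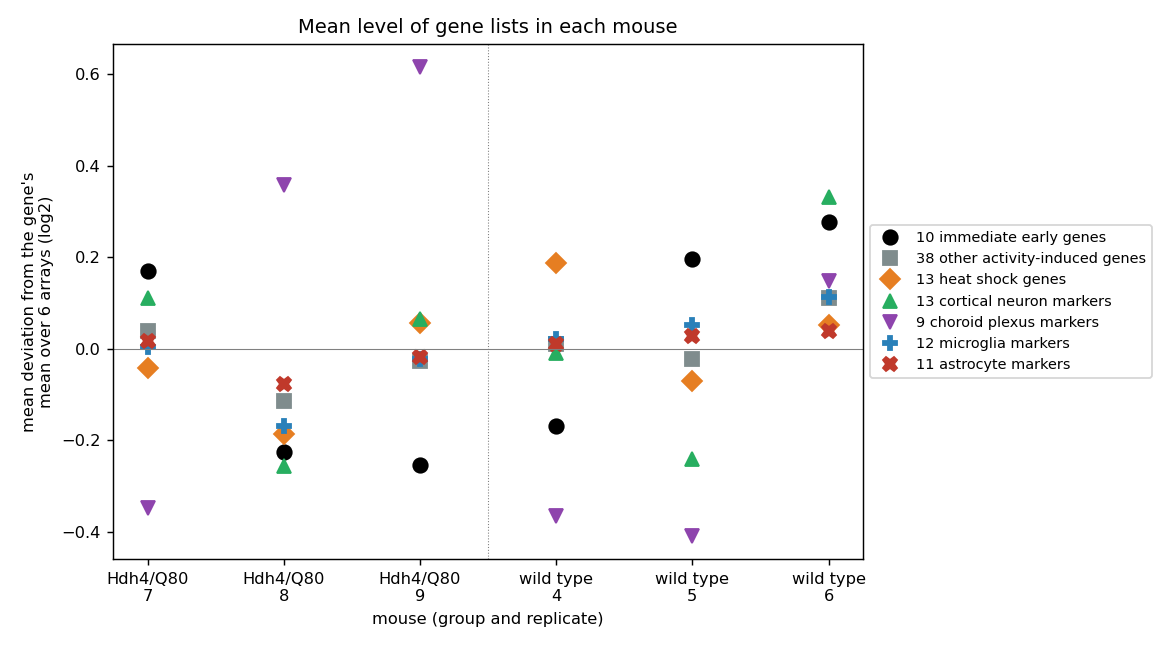
Mean deviation of each gene list from its genes' means over 6 arrays (log2, vertical axis) in each mouse, with Hdh4/Q80 on the left and wild type on the right. The members lie at 0.17, -0.23 and -0.25 in Hdh4/Q80 replicates 7, 8 and 9 and at -0.17, 0.20 and 0.28 in wild-type replicates 4, 5 and 6, and of the 6 other lists shown only the astrocyte markers, with deviations from -0.077 to 0.039, have the same 3 mice highest.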

How the data were processed

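Striatal RNA from 6 mice was measured on 1 Affymetrix array each. The authors deposited log2 expression values per probe set; the submitters' processing notes name RMA and affy. Their versions and the set of arrays in the normalization were not given in the sources used here. This method corrects background, equalises distributions between arrays and compresses differences of dim probe sets. Groups and replicate numbers came from the sample titles. No scanner files or detection calls were used here, and the number of arrays limits the precision.

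Of 12488 probe sets, 66 controls were left out. The platform annotation gave 1 gene symbol for 10833 probe sets, several for 396 and none for 1193; of 8251 genes 8237 matched RefSeq (GRCm38.p6) by identifier. A gene with several probe sets was represented by the brightest over all 6 arrays.

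Differences, Hdh4/Q80 minus wild type, came from limma 3.58.1 in R 4.3.3 (lmFit, eBayes), with Benjamini-Hochberg adjustment and a threshold of 0.05. The fit was tested on simulated data. The members and lists were chosen with earlier results of these data known. Named genes were all members, the 10 most like the members' mean centred profile and, for some lists, genes with the smallest p-values. For the other lists the genes with the smallest p-values were not printed. Jun, Sgk1, Cebpd, Tiparp, Gadd45g, Pim1, Fosl1, Scg2, Irs2, Plk3, Tbr1, Cck and Mef2c were named after their values were seen. So were the blood and spiny neuron markers and the unmeasured genes. Alternatives were renewed quantile normalization, median centring, leaving out the dimmest 40% of probe sets, trended and robust moderation, averaging a gene's probe sets, Spearman's rho, and leaving out each mouse.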

Additional observations from a re-analysis of the deposited data

How the results depend on the processing

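No probe set passed under any setting, including each left-out mouse. The members' median difference stayed below 0 in every setting (-0.30 to -0.09 with 1 mouse left out). Without the dimmest 40% of probe sets Fos, Egr2 and Ier2 drop out, so that median is over the rest. Mean r between members was 0.50 to 0.66 with 1 mouse left out, 0.34 after averaging a gene's probe sets and 0.78 without Fosb and Btg2 (a choice made after seeing the data). Mean r of deviations was 0.41 to 0.73, and 0.34 after that averaging. The other activity-induced genes' median r with the member profile was 0.14 to 0.46 with 1 mouse left out. The spread against which these correlations were judged was the SD of their left-out values. List medians ran, with 1 mouse left out, from -0.087 to 0.050 for the clock, -0.078 to 0.069 for spiny neuron markers, -0.13 to -0.060 for astrocyte markers and -0.10 to -0.0054 for oligodendrocyte markers. The dimer partner median was -0.010 after quantile normalization, and the blood median -0.29 without dim probe sets. No paired analysis was possible, because the sample labels do not say which mice share a litter and the groups share no replicate number. Without detection calls, dim probe sets could not be called absent.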

Other observations

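In wild-type replicate 4, the littermate with low Fos, Junb, Nr4a1 and Dusp1, 3 of the 17 measured clock genes lay apart from the other mice. They were singled out after their values were seen and are given without a test. Arntl, which encodes the clock activator BMAL1, read 7.41, 7.38 and 7.45 in the Hdh4/Q80 mice, against 8.04, 7.45 and 7.47 in wild-type replicates 4, 5 and 6. Cry1, a clock repressor, read 8.04, 7.99 and 8.30 in the Hdh4/Q80 mice, against 8.59, 8.08 and 8.14 in the wild-type mice. Dbp, an output gene that BMAL1 and CLOCK activate, lay the other way, at 8.40, 8.18 and 8.42 in the Hdh4/Q80 mice and 7.90, 8.37 and 8.28 in the wild-type mice. The Cry1 values are those of its bright probe set. Wild-type replicate 4 was not the highest mouse on its dim probe sets 94421_r_at and 161225_r_at, at the 0.338th and 0.298th percentile of mean level.

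Of the 17 clock genes wild-type replicate 4 was the highest mouse for 5 (Cry1, Arntl, Clock, Npas2 and Csnk1e) and the lowest for 3 (Dbp, Bhlhe40 and Timeless). Over all genes it was the highest for 17.5% and the lowest for 12.7%. For 10 of the 17 clock genes, and for 36% of all genes, the lowest mouse was Hdh4/Q80 replicate 8. Among the immediate early genes wild-type replicate 6 was the highest mouse for 7 of the 10, against 14.5% of all genes, whereas wild-type replicate 4 was the lowest for 2. Hdh4/Q80 replicates 8 and 9 were the lowest for 4 members each, against 36% and 20.3% of all genes. The members were chosen by their per-array values, and they share their mice. Their counts are given as a description without a test, and nothing is read from the comparison with all genes.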
